A study of Arabidopsis thaliana with 14 samples.

Results

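The 100 genes described here are those of Arabidopsis thaliana whose transcripts stood highest in the bent embryo relative to every other embryo stage, out of 25414 named genes measured. They were chosen from the values themselves. A gene qualified when its mean at the bent stage was 1000 or more, both bent libraries were above all 12 other libraries, and the gene was among the first 100 when ranked by the bent mean over the highest other stage mean plus 4. Of the 274 genes that met the first 2 conditions, 11 belonged to a set of 12 genes that the choice leaves out, most of them cruciferins, other cupins and oleosins, so 263 genes were ranked. The bent peak is therefore the choice itself and is given as a description, without a test.

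At the bent stage the cotyledons fold over within the seed and the embryo is in the filling phase. Storage proteins are made on the endoplasmic reticulum and sent to storage vacuoles, where proteases trim them. Triacylglycerol is packed into oil bodies whose surface carries oleosins, caleosins and steroleosins. Transcription factors of the LEC1, ABI3 and bZIP families drive this programme, in part through RY elements and ACGT-containing boxes of seed promoters, and filling gives way to desiccation as the embryo matures.

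Whole embryos of the Col-0 ecotype, with no genotype or treatment that distinguished them, were isolated at the zygote, octant, globular, heart, torpedo, bent and mature stages. Each stage had 2 biological replicates per the labels, 14 libraries in all, and the messenger RNA was amplified before library preparation. Values are normalised read counts, given as reads per 20000000 reads of a library. They are not divided by transcript length, so values of different genes rank reads and not transcripts.

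The libraries held 6078186 to 30803336 reads, and 1 read was worth 0.649 to 3.29 units. Markers of embryo identity were detected at every stage, with 4 to 6 of the 6 listed genes in the table at 10 or more in each library. Their summed level was 1384 and 434 at bent, against 3099.5 and 2138 at torpedo and 2384 and 1332 at mature. ATML1 supplied most of the embryo marker sum at bent, with 1128 and 323. Of 8 endosperm markers in the table, 3 and 4 were at 0 in the bent libraries, and the summed level of all 8 was 741 and 978 there, against 272 and 279 at torpedo and 394 and 339 at mature. EPR1 supplied most of that sum at bent with 838 ± 165 (SD, n = 2). Of 8 seed coat markers, 2 and 3 were at 0 at bent, with a summed level of 2441 and 1022, below the 4962 and 4499 of torpedo. The part that other seed tissue may have in the values of the members was not tested. In whole embryos, more cells expressing a gene and more RNA per cell cannot be told apart.

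The members together took 10.4% and 11.1% of named-gene reads in the 2 bent libraries, compared with 1.10% in each torpedo library, 1.05% and 1.38% at mature, and 0.0939% to 0.240% in the 8 libraries from zygote to heart. The 12 genes left out took a further 15.0% and 21.6% at bent. The median member had a value of 3838.5 and 2724 in the bent libraries, 423 and 557 at torpedo and 117 and 163 at mature. A small number of members carried most of these reads, since the 10 members with the highest bent means held 72.1% and 76.0% of the members' total. Those 10 were OLEO2, OLEO4, AT1G47540, ATS3, AT1G62500, BETA-TIP, LTP2, AT1G62290, AT3G63040 and AOP3.

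**Figure D1:**
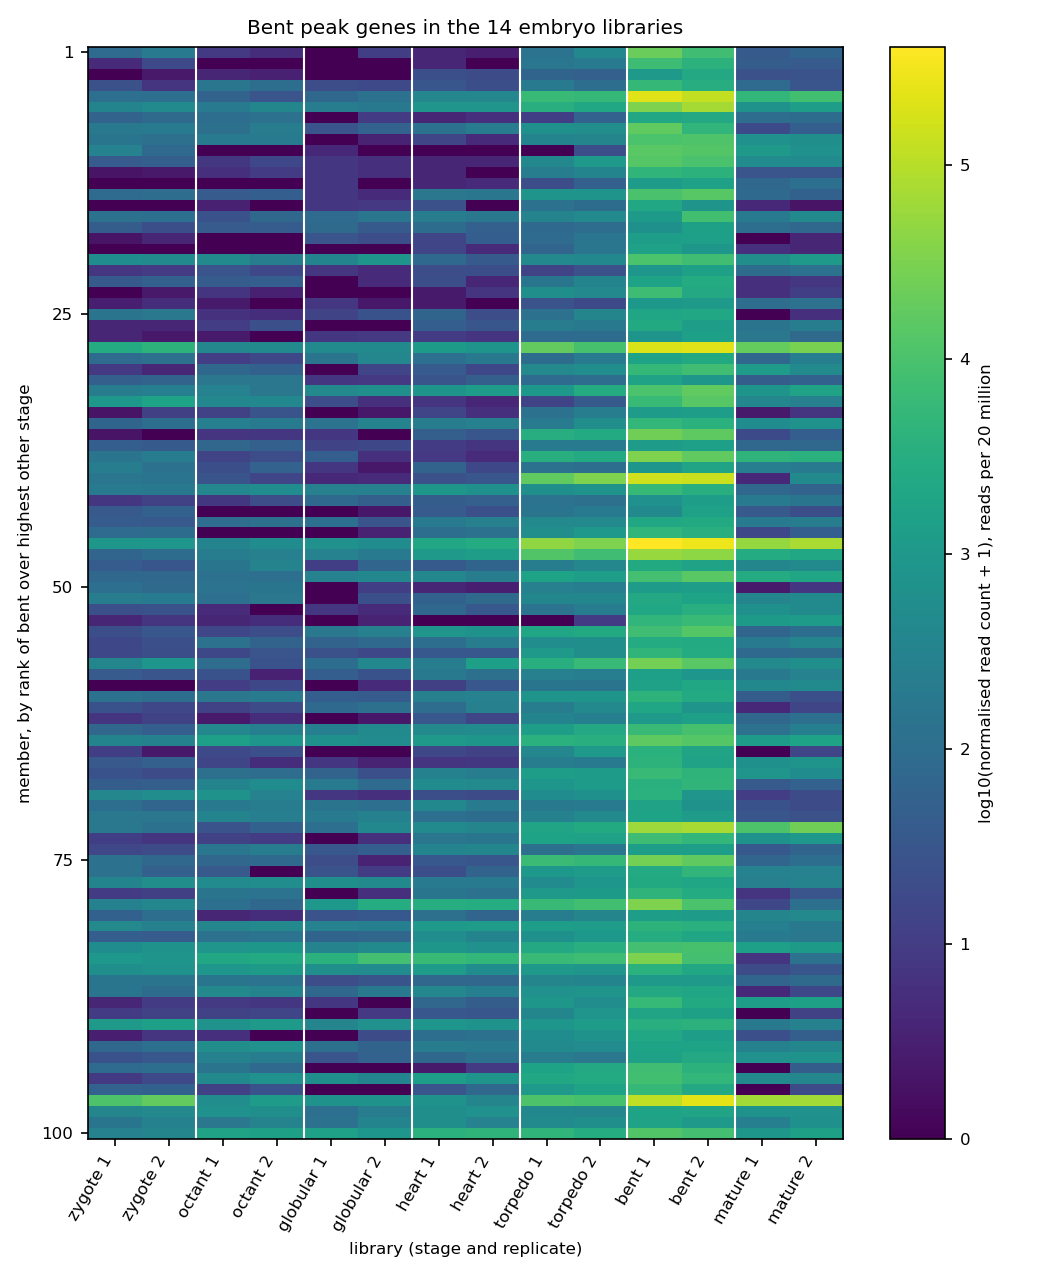
Rows are the 100 members by rank and columns are the 14 libraries, with colour giving log10 of the normalised read count plus 1. The bent columns are the brightest in every row, torpedo is next for 61 members and mature for 28. The median member is lower in each library from zygote to heart than at torpedo or mature, but some rows, such as EXPA1 and AGP17, are darker at mature than at zygote.

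The bent mean was 52.1 times the highest other stage mean plus 4 for the first member, AT2G18540, 8.88 times for the member at rank 25, 4.91 times at rank 50 and 2.52 times for the last, emb2742. Just outside lay AT4G25980 at 2.51, the bZIP gene EEL at 2.46 and BGLU29 at 2.45. The lowest bent means inside were those of AT2G35820, MES10 and AT5G15780 at 1026 to 1030, and AT1G12845 missed the minimum with a bent mean of 996 although its ratio was 28.2. AT1G72645 and AT2G05632 missed it with bent means of 925 and 921. The highest other stage was torpedo for 61 members, mature for 28, heart and octant for 4 each, zygote for 2 and globular for 1.

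Because the members share a pattern over time, their promoters were searched for short motifs known from seed genes, in the 250 bases before and 50 bases after each gene start and on both strands. The RY core CATGCA was present in 25% of the members, in 10.09% of the 2231 other genes with a bent mean of 1000 or more, and in 9.81% of all 24922 genes with a promoter sequence. The G-box CACGTG was present in 15%, 12.1% and 7.71% respectively, and the shorter ACGTG, which every G-box contains, in 40%, 30.6% and 26.9%. The doubled RY form CATGCATG, which contains the core, was present in 3%, 1.03% and 0.895%. TGAGTCA was found in 3%, 3.36% and 3.49%, AACAAAC in 13%, 13.7% and 13.4%, CCAAT in 47%, 54.4% and 51.5%, and TATAAA in 55%, 50.9% and 52.7%. These shares are a description and carry no test.

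By function the RY core was found in 5 of 7 oil body and lipid members, 4 of 12 lipid transfer and proline-rich members, 3 of 8 storage vacuole and protease members, 3 of 8 transcription members, 2 of 11 wall members, 1 of 12 hormone and specialised metabolism members, 1 of 6 secretory members, 0 of 5 transporters and 6 of the 31 other members. Both RY core and G-box were found in 6 members, which is 6% against 1.66% of the other genes high at bent and 0.855% of all genes. These were BETA-TIP, AT3G18570, HSD6, AT4G02360, AT4G16140 and AT5G43770.

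The upstream 250 bases of 6 members are shown 5′ to 3′ toward the gene start, from RefSeq build TAIR10.1, chosen in 2 ways. AT2G18540, CYS2 and AT5G43770 hold 4 kinds of motif, the most among the first 25 members, and rank highest of those that do. Kinds were counted over the whole searched stretch, and a G-box also counts as ACGTG. The AACAAAC of AT2G18540 and the TATAAA of CYS2 and AT4G16140 lie past the gene start and are not shown. AT5G49280, not shown, and AT4G16140 rank lower among the 25 and also hold 4 kinds. AT3G18570, AT4G02360 and AT4G16140 hold an RY core and a G-box within these 250 bases, as does AT5G43770, whereas in BETA-TIP and HSD6, not shown, the pair is not complete within them. Capitals mark every match to a searched motif on either strand. The cupin gene AT2G18540 (chr2:8045034-8045283, minus strand) has 3 G-boxes that begin 105, 85 and 65 bases before the start. The cystatin gene CYS2 (chr2:13609956-13610205, minus strand) has 1 G-box, 104 bases before the start. The proline-rich protein gene AT5G43770 (chr5:17588540-17588789, plus strand) has an RY core at 98 bases and a G-box at 57 bases before the start. The oleosin gene AT3G18570 (chr3:6396625-6396874, minus strand) has a G-box at 69 and an RY core at 52 bases before the start. AT4G02360 (chr4:1040836-1041085, plus strand), which encodes a membrane protein of unknown function, has G-boxes at 121 and 94 and an RY core at 48 bases before the start. In the proline-rich protein gene AT4G16140 (chr4:9128482-9128731, plus strand) the G-box at 233 bases and the RY core at 229 bases before the start overlap.
AT2G18540: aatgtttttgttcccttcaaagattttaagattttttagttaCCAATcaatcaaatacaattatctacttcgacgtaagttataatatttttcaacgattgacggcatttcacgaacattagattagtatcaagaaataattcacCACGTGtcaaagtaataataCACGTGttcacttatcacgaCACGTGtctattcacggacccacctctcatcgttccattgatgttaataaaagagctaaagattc
CYS2: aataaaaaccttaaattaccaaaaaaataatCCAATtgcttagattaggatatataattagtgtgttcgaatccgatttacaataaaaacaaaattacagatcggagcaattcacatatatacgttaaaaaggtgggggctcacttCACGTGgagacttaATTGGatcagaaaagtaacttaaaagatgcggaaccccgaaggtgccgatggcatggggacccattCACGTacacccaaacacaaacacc
AT5G43770: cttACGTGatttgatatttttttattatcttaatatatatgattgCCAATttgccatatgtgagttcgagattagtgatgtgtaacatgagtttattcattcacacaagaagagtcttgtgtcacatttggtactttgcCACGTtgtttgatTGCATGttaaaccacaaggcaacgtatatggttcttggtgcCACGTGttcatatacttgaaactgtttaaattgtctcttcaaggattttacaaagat
AT3G18570: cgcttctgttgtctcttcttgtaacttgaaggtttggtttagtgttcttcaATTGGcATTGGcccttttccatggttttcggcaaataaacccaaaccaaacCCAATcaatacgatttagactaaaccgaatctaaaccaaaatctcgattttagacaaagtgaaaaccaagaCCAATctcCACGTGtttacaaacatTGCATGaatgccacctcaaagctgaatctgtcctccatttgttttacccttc
AT4G02360: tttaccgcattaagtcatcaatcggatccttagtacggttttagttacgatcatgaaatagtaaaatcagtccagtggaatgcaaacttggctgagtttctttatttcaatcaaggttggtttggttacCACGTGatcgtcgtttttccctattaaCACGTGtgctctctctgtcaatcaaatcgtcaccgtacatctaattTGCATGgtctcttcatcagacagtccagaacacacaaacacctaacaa
AT4G16140: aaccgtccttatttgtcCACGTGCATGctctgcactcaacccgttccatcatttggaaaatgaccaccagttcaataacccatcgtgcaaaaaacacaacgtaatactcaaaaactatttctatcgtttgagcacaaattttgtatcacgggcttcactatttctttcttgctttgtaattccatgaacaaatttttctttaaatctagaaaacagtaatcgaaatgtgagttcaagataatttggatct

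Most members had begun to rise before the bent stage. Between heart and torpedo, 72 of 100 members rose and 1, the glucan synthase gene CSLC12, fell, where 16.3% of the 18744 genes tested were called higher and 9.17% lower (limma on log2(value + 4), adjusted p under 0.05). The median member changed by 2.30 on the log2 scale against 0.19 for all genes tested. With each library centred on its median, 62 members were called higher and 2 lower, against a background of 10.5% and 16.7%. The libraries of every called member did not overlap between the stages. The share without overlap among all called genes was not counted, so this is not a result about the members. Changes of single genes below are log2 changes of this fit with their SE and the p adjusted over all genes tested.

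After the peak the members differed in how far they declined. Between torpedo and mature, the stages on either side, 13 members were higher at mature and 55 lower, but 15.6% of all genes tested were called higher and 51.3% lower, so these shares are near the background. The median member changed by -1.45 against -1.21 for all genes. With each library centred on its median the split turned to 44 higher and 34 lower, against a background of 45.6% and 24.9%, so these counts depend on the scaling. The counts by functional group below stand against the same shares of all genes. MSRB6, HSD1, AT4G11320, BETA-TIP and AT1G47540 rose most, and AT1G62500, EXPA15, AT2G10940, EXPA5 and ABCG8 fell most. All 10 of these calls held under the median centring.

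**Figure D2:**
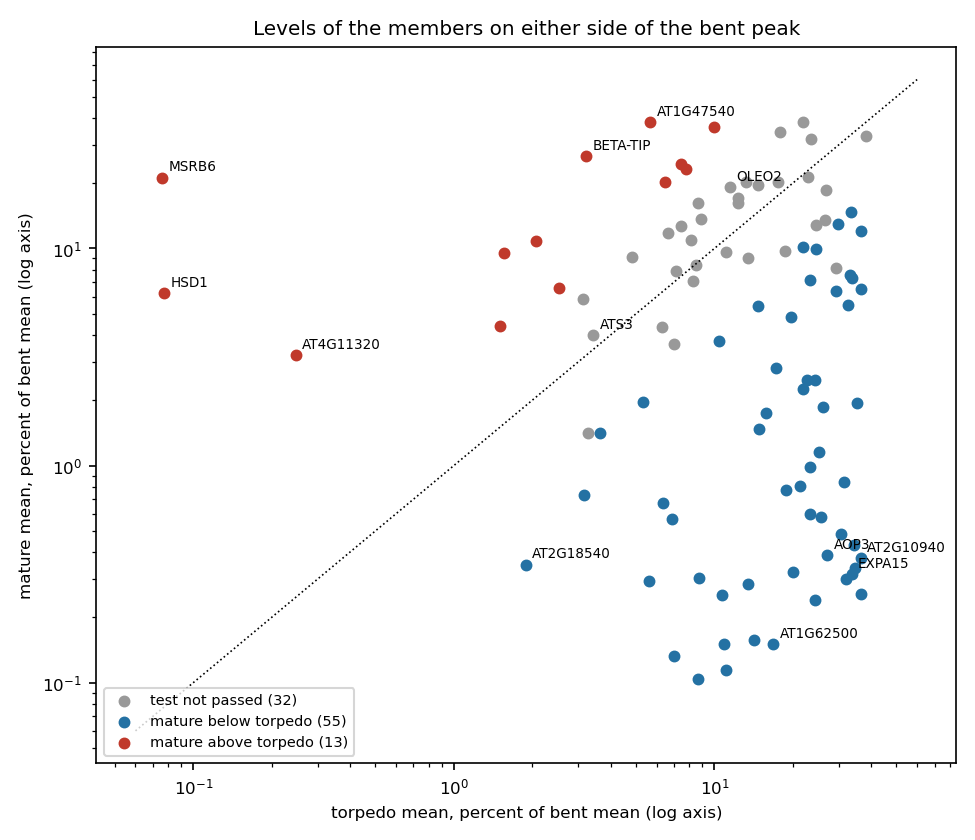
Each point is a member, with its torpedo mean on the x axis and its mature mean on the y axis, both as a percent of its bent mean on log axes. Red points passed the test as higher at mature (13), blue points as lower (55) and grey points did not pass it (32), and the dotted line marks equal levels.

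The mature mean was under 1% of the bent mean for 30 members and over 20% for 14, with a median of 5.48%. The torpedo mean was under 1% for 3 members and over 20% for 40, with a median of 14.7%. At the start of the series, between zygote and octant, 24 members rose and 24 fell, where 44.7% of all genes tested were called higher and 13.1% lower. With median centring 10 members were higher and 41 lower, against 21.2% and 29.4%. The summed level of seed coat markers was 12922 and 14785 in the zygote libraries and 18973 and 21629 in the octant libraries, higher than at any later stage, and its part in the early values was not tested.

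**Figure D3:**
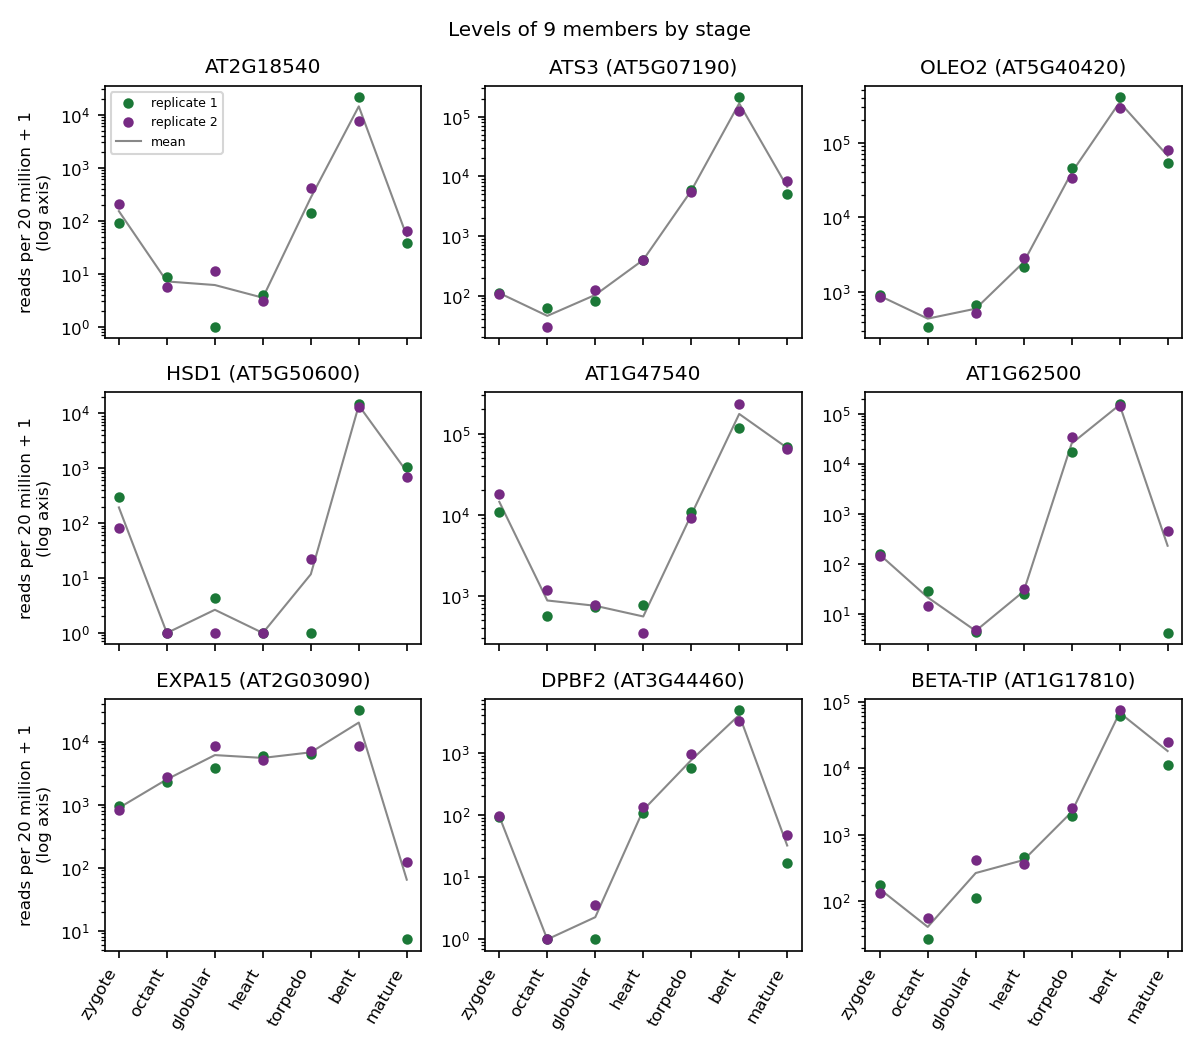
Points are single libraries, coloured by replicate, and grey lines join stage means for 9 members, on log axes of the normalised read count plus 1. The bent libraries are highest in each panel, while the levels at mature differ widely, from OLEO2 and AT1G47540, with means of 66608 and 66762, to EXPA15 and DPBF2 with 63.3 and 31.3.

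The group of storage vacuole proteins, proteases and their relatives held 8 members, of which scpl17 belongs to the serine carboxypeptidase family but acts as an acyltransferase. All 8 rose between heart and torpedo (7 after median centring). Between torpedo and mature 3 rose and 3 fell (5 and 1 after centring). The first-ranked member AT2G18540, a cupin with the fold of vicilin storage proteins, had values of 90.2 and 209 in the zygote libraries, 7.74 and 4.50 at octant, 0 and 10.2 at globular, 3.02 and 2.002 at heart, 138 and 404 at torpedo, 21085 and 7565 in the bent libraries and 37.5 and 62.6 at mature. The bent libraries lay 2.79-fold apart, yet the lower of them was far above every other library. Its change from heart to torpedo was 5.21 ± 0.70 (SE), adjusted p = 0.000121, and from torpedo to mature -2.19 ± 0.70 (SE), adjusted p = 0.0116, a fall that did not pass after median centring.

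ATS3, which encodes an embryo-specific protein, had values of 112 and 108 in the zygote libraries, 60.4 and 29.3 at octant, 78.97 and 125 at globular, 396 and 397 at heart, 5973 and 5472 at torpedo, 209250 and 124006 in the bent libraries and 5139 and 8179 at mature. The heart-to-torpedo change was 3.84 ± 0.40 (SE), adjusted p = 2.03e-05, whereas its torpedo and mature libraries overlapped and were called different, higher at mature, after median centring alone. BETA-TIP, the aquaporin TIP3;2 of the storage vacuole membrane, had values of 171 and 129.8 in the zygote libraries, 25.5 and 54.1 at octant, 112 and 414 at globular, 467 and 359 at heart, 1883 and 2479.6 at torpedo, 61607 and 74163 in the bent libraries and 11072 and 24990 at mature. Its mature libraries lay above both torpedo libraries (log2 change 2.94 ± 0.54 (SE), adjusted p = 0.0002). BETA-TIP overlaps AT1G05333 on the opposite strand and shares 40.5% of its 50-base words with it, so some of its reads may have been counted to the one or the other.

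Proteases and their inhibitors were part of the same group and did not follow one course after the peak. CYS2, a cystatin that inhibits papain-type proteases, had values of 38.8 and 48.7 in the zygote libraries, 6.96 and 15.8 at octant, 6.58 and 5.09 at globular, 3.02 and 3.003 at heart, 410.0 and 1051 at torpedo, 13358 and 9855 in the bent libraries and 498 and 515 at mature. It rose from heart to torpedo (6.56 ± 0.48 (SE), adjusted p = 9.45e-07), and its mature libraries lay within the range of the torpedo ones, though median centring placed mature higher. The papain-type protease AT4G11320 had values of 957 and 1815 in the zygote libraries, 412 and 405 at octant, 19.7 and 5.09 at globular, 6.04 and 3.003 at heart, 13.1 and 37.7 at torpedo, 6342 and 14169 in the bent libraries and 394 and 268 at mature. It was therefore abundant in zygotes, low from globular to torpedo, and higher at mature than at torpedo (3.62 ± 0.57 (SE), adjusted p = 4.66e-05).

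The aspartic protease AT1G62290, of a class that processes storage proteins, had a torpedo mean of 9986 ± 3328, a bent mean of 50791 ± 7243 and a mature mean of 2455 ± 425 (SD, n = 2). Its fall from torpedo to mature (-1.99 ± 0.36 (SE), adjusted p = 0.000172) was not called after median centring. AT1G47540, a small knottin-fold protein, had values of 10846 and 18041 in the zygote libraries, 560.2 and 1191 at octant, 734 and 772 at globular, 764 and 347 at heart, 10732 and 9179.5 at torpedo, 116989 and 233618 in the bent libraries and 68091 and 65433 at mature. It was high in the zygote, fell by octant (-4.09 ± 0.49 (SE), adjusted p = 1.36e-05) and was higher at mature than at torpedo (2.75 ± 0.49 (SE), adjusted p = 0.00014). In the octant against zygote comparison 6 of the 8 members of this group fell and 1 rose, where 13.1% of all genes tested were called lower and 44.7% higher. With median centring 6 fell and 0 rose, against 29.4% and 21.2%.

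The oil body genes OLEO2 and OLEO4 had the highest bent means of the members, although ATS3 was above OLEO4 in bent replicate 1 and AT1G47540 in bent replicate 2. Of the 7 oil and lipid members, 6 rose between heart and torpedo, with or without median centring. Between torpedo and mature 1 rose and 2 fell (5 and 1 after centring). OLEO2, an oleosin of the oil body coat, had values of 920.2 and 857 in the zygote libraries, 344 and 536 at octant, 678 and 518 at globular, 2182 and 2826 at heart, 46138 and 33137 at torpedo, 401103 and 291296 in the bent libraries and 53330.2 and 79886 at mature. OLEO4, another oleosin, had values of 2784 and 4129 in the zygote libraries, 388 and 486 at octant, 444 and 473 at globular, 1119 and 783 at heart, 18151 and 9620.4 at torpedo, 188699 and 228052 in the bent libraries and 19015 and 30211 at mature. Another oleosin, AT3G18570, whose promoter is printed above, had values of 73.7 and 76.7 in the zygote libraries, 119.9 and 108 at octant, 299 and 415 at globular, 397 and 233 at heart, 1781 and 1325 at torpedo, 8338 and 15142 in the bent libraries and 2769 and 1986 at mature. The 3 oleosins rose from heart to torpedo by 3.97, 3.81 and 2.32 on the log2 scale (adjusted p = 1.24e-05, 2.19e-05 and 0.000709). Between torpedo and mature the as-deposited values gave 0.74, 0.86 and 0.61 and no call, while after median centring all 3 were higher at mature (adjusted p = 7.6e-06, 1.4e-05 and 7.6e-05). OLEO2 retained 19.2% of its bent mean at mature, OLEO4 11.8% and AT3G18570 20.3%.

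The steroleosins, oil body proteins with a sterol dehydrogenase domain, had unlike levels at torpedo. HSD1 had values of 303 and 81.1 in the zygote libraries, 0 and 0 at octant, 3.29 and 0 at globular, 0 and 0 at heart, 0 and 21.4 at torpedo, 14818 and 12866 in the bent libraries and 1037 and 689 at mature. It was almost absent at torpedo, with 0 and 21.4, and was higher at mature (6.40 ± 0.74 (SE), adjusted p = 2.15e-06). Every 50-base word of HSD1 also occurs in AT5G50700, so its reads cannot be assigned to 1 of the 2 copies. HSD6 had already reached 1667 ± 138 at torpedo (SD, n = 2), after 156 ± 6.30 at heart (3.39 ± 0.44 (SE), adjusted p = 9.84e-05).

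The other lipid members were PLA2-ALPHA, a secreted phospholipase, and the GDSL-type lipase AT2G27360. PLA2-ALPHA had a bent mean of 1299.9 ± 95.1 and a mature mean of 4.21 ± 3.74 (SD, n = 2). It fell from torpedo to mature (-5.09 ± 0.56 (SE), adjusted p = 1.18e-06).

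Of 12 lipid transfer and proline-rich wall proteins, 11 rose between heart and torpedo (10 after median centring). Between torpedo and mature 8 fell and 2 rose (7 and 4 after centring). AT1G62500, a lipid transfer protein of the storage albumin family, had values of 159 and 145 in the zygote libraries, 27.1 and 13.5 at octant, 3.29 and 3.82 at globular, 24.2 and 30.03 at heart, 17413 and 33765 at torpedo, 159294 and 144413 in the bent libraries and 3.13 and 455 at mature. It rose by the largest amount of any member from heart to torpedo (9.61 ± 1.17 (SE), adjusted p = 6.31e-05) and fell by the largest amount from torpedo to mature (-8.73 ± 1.17 (SE), adjusted p = 9.42e-06), although its mature libraries were far apart.

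AT2G10940, of the same family, had values of 90.2 and 105 in the zygote libraries, 139 and 83.3 at octant, 0 and 0 at globular, 1.51 and 8.01 at heart, 1781 and 2409 at torpedo, 7519 and 3966 in the bent libraries and 0 and 43.04 at mature. Its changes were 7.995 ± 0.81 (SE), adjusted p = 1.57e-05 from heart to torpedo and -7.24 ± 0.81 (SE), adjusted p = 1.58e-06 from torpedo to mature. AT1G62790, also of the family, had a torpedo mean of 385 ± 136, a bent mean of 1477 ± 373 and a mature mean of 27.4 ± 5.52 (SD, n = 2), and it fell from torpedo to mature (-3.60 ± 0.39 (SE), adjusted p = 1.14e-06). LTP2, an extracellular lipid transfer protein, had values of 329.7 and 453 in the zygote libraries, 213 and 367 at octant, 224 and 187 at globular, 842 and 834 at heart, 3388 and 2169 at torpedo, 32548 and 71964 in the bent libraries and 719.7 and 1328 at mature. Its bent libraries were 2.21-fold apart and both were above every other library.

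CWLP, a proline-rich protein that links wall and plasma membrane, had 0 and 2.55 in the globular libraries, 341 and 350.0 at torpedo and 10412 and 11738 at bent. It overlaps AT3G22121 on the opposite strand and shares 79.9% of its 50-base words with it, so its level is uncertain. AGP17, an arabinogalactan protein, had values of 143 and 171 in the zygote libraries, 5.42 and 4.50 at octant, 13.2 and 24.2 at globular, 61.9 and 20.02 at heart, 125 and 349 at torpedo, 2082 and 2194 in the bent libraries and 0 and 4.89 at mature. It fell from zygote to octant (-4.16 ± 0.60 (SE), adjusted p = 5.58e-05) and was near 0 again at mature. AT5G15780, an extensin-like protein, rose from torpedo to mature (2.21 ± 0.48 (SE), adjusted p = 0.000746), and so did the proline-rich AT5G43770 (1.39 ± 0.54 (SE), adjusted p = 0.033), while the proline-rich AT4G16140 fell (-4.53 ± 0.55 (SE), adjusted p = 3.12e-06). The hydroxyproline-rich AT1G15825 was at 0 in all 6 libraries before heart. It overlaps AT1G15830 on the opposite strand and shares 71.5% of its words with it. AT5G49280, of the same description, had a bent mean of 1079.7 ± 589 and passed neither test in the values as deposited.

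Of the 11 genes of cell wall loosening and polysaccharide synthesis, 4 rose between heart and torpedo and 1 fell (2 and 1 after median centring), while 9 fell and 1 rose between torpedo and mature, where 51.3% of all genes tested were called lower and 15.6% higher. After centring 5 fell and 2 rose there, against 24.9% and 45.6%. EXPA15, an expansin, which loosens walls during growth, had values of 963 and 808 in the zygote libraries, 2306 and 2725 at octant, 3771 and 8439 at globular, 5826 and 5183 at heart, 6376 and 7136 at torpedo, 31510.3 and 8596 in the bent libraries and 6.26 and 120.3 at mature. EXPA5 had values of 289 and 399.6 in the zygote libraries, 111 and 76.6 at octant, 958 and 2907 at globular, 3119 and 3005 at heart, 6022 and 8061 at torpedo, 33223 and 10594 in the bent libraries and 15.6 and 116 at mature. EXPA1 had values of 179 and 190.2 in the zygote libraries, 118 and 232 at octant, 29.6 and 55.996 at globular, 121 and 226 at heart, 649 and 582 at torpedo, 17115 and 4793 in the bent libraries and 17.2 and 46.96 at mature. The torpedo-to-mature changes of the 3 expansins were -7.56 ± 0.83 (SE), adjusted p = 1.29e-06, then -7.16 ± 0.72 (SE), adjusted p = 5.09e-07, and -4.23 ± 0.59 (SE), adjusted p = 1.46e-05, and these calls held after centring. The mature libraries of each lay below both torpedo libraries, and EXPA15 was at 808 or more in every library from zygote to heart. In the bent libraries all 3 were over 3-fold higher in replicate 1 than in replicate 2.

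CSLC12, of the family that makes the xyloglucan backbone, had values of 14.5 and 19.2 in the zygote libraries, 157 and 239 at octant, 32.9 and 47.1 at globular, 335 and 364 at heart, 118 and 158 at torpedo, 1328 and 1316 in the bent libraries and 34.4 and 64.6 at mature. It rose from zygote to octant (3.25 ± 0.42 (SE), adjusted p = 2.54e-05) and fell from heart to torpedo (-1.33 ± 0.42 (SE), adjusted p = 0.0324), a call that was lost when either heart or either torpedo library was left out. CESA6, a cellulose synthase subunit, had a zygote mean of 1281 ± 257, a bent mean of 3658 ± 562 and a mature mean of 232 ± 74.1 (SD, n = 2). FUC95A, a fucosidase that acts on xyloglucan, fell from 939 ± 152 at torpedo to 25.04 ± 8.86 at mature (-5.05 ± 0.42 (SE), adjusted p = 1.12e-07). The pectin lyase-fold protein AT5G19730 had 3794 and 848 in the bent libraries, a 4.47-fold difference, and fell from torpedo to mature (-5.13 ± 0.61 (SE), adjusted p = 2.72e-06).

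UGP2, which makes UDP-glucose, had a bent mean of 2712 ± 87.3, GAE5, which makes the pectin precursor UDP-galacturonate, one of 1789 ± 22.2, and the endoglucanase GH9C2 one of 1214 ± 724 (SD, n = 2). The wall member that was higher at mature than at torpedo was the glycosyl hydrolase AT4G34480 (1.87 ± 0.43 (SE), adjusted p = 0.00121), which kept 36.1% of its bent mean.

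**Figure D4:**
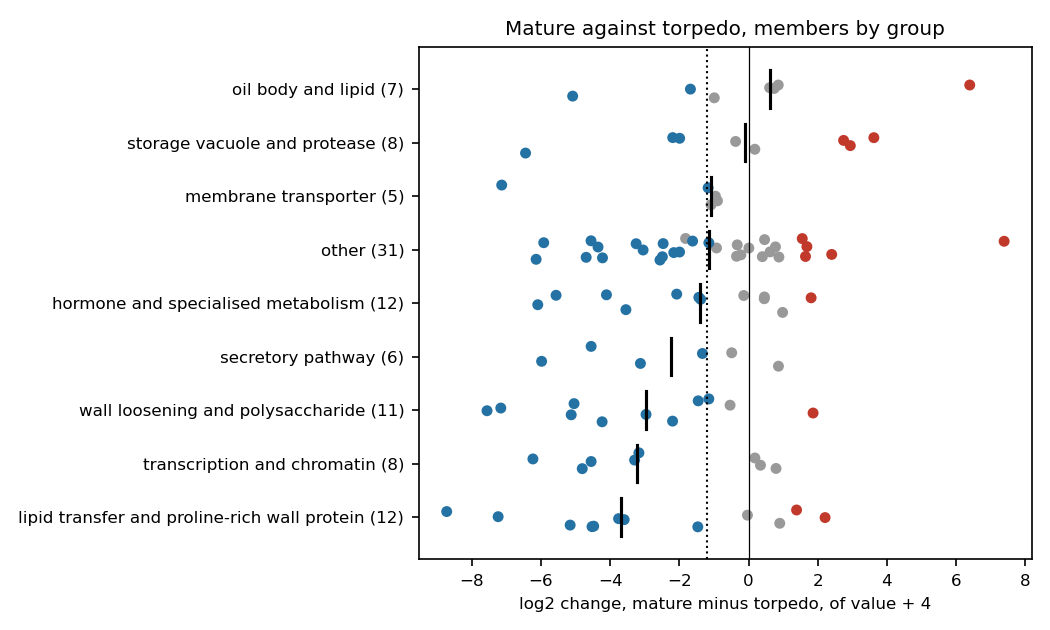
Points are members by functional group, with the log2 change from torpedo to mature of value + 4 on the x axis, coloured as called higher (red), lower (blue) or not past the test (grey). Black bars are group medians and the dotted line is the median of all genes tested, -1.21, so oil body and storage members lie mostly to its right and wall and lipid transfer members mostly to its left.

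The secretory pathway, through which storage proteins travel, was represented by 6 members, of which 4 rose from heart to torpedo with or without centring, and 0 rose and 4 fell from torpedo to mature (2 and 2 after centring). AT3G25160, of the receptor family that returns proteins to the endoplasmic reticulum, had values of 523 and 469 in the zygote libraries, 444 and 229.7 at octant, 329 and 802 at globular, 80.02 and 38.03 at heart, 439.5 and 422 at torpedo, 10246 and 7641 in the bent libraries and 593 and 1046 at mature. It was lowest at heart, and the rise from heart to torpedo passed the test (2.87 ± 0.49 (SE), adjusted p = 0.000723), while mature was called above torpedo after median centring alone. AT5G60460, the beta subunit of the Sec61 translocon through which new proteins enter the endoplasmic reticulum, had values of 368 and 886 in the zygote libraries, 102 and 24.8 at octant, 105 and 416 at globular, 226 and 1437 at heart, 3293 and 6305 at torpedo, 27356 and 15114 in the bent libraries and 427 and 629 at mature. AT1G27350, related to the ribosome-associated membrane protein RAMP4, had a bent mean of 13727 ± 4368, and AT4G17790, a Golgi membrane protein, one of 15048 ± 2417 (SD, n = 2). The endomembrane protein AT2G24170 fell from torpedo to mature (-5.98 ± 0.51 (SE), adjusted p = 1.34e-07), as did the reticulon AT5G58000 (-4.55 ± 0.60 (SE), adjusted p = 7.34e-06), reticulons being proteins that shape the endoplasmic reticulum.

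Of the 5 transporters, 4 rose from heart to torpedo (3 after centring), and 0 rose and 2 fell from torpedo to mature (3 and 1 after centring). ABCC5, which loads phytate, the phosphate store of seeds, into vacuoles, had values of 541 and 709 in the zygote libraries, 820.2 and 937 at octant, 313 and 448 at globular, 918 and 675 at heart, 2398 and 3497 at torpedo, 8443 and 9183 in the bent libraries and 1446 and 1144 at mature. It rose from heart to torpedo (1.87 ± 0.35 (SE), adjusted p = 0.00141), and its bent mean was 2.99 times the torpedo mean. INT2, an inositol transporter, had a bent mean of 1328 ± 545 against 93.3 ± 6.71 at torpedo (SD, n = 2). ABCG8, a half-size ABC transporter, had values of 56.2 and 53.1 in the zygote libraries, 11.6 and 24.8 at octant, 0 and 0 at globular, 28.7 and 75.1 at heart, 1069 and 1737 at torpedo, 5272 and 2389.7 in the bent libraries and 0 and 19.6 at mature, and fell from torpedo to mature (-7.14 ± 0.72 (SE), adjusted p = 5.08e-07). The MATE efflux carrier AT1G15160 had values of 0 and 1.47 in the zygote libraries, 3.10 and 2.25 at octant, 0 and 0 at globular, 22.6 and 19.02 at heart, 62.3 and 52.6 at torpedo, 1059.6 and 2464 in the bent libraries and 23.5 and 26.4 at mature, and a second MATE carrier, AT5G17700, reached 5369 ± 1221 at bent.

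Of 12 enzymes of hormone and specialised metabolism, 9 rose from heart to torpedo (8 after centring), and 1 rose and 7 fell from torpedo to mature (5 and 4 after centring). GA20OX3, a gibberellin 20-oxidase late in gibberellin synthesis, had values of 88.2 and 100.3 in the zygote libraries, 40.2 and 47.3 at octant, 6.58 and 3.82 at globular, 165 and 155 at heart, 804 and 801 at torpedo, 9647 and 13773 in the bent libraries and 79.8 and 52.8 at mature. It rose from heart to torpedo (2.30 ± 0.38 (SE), adjusted p = 0.000611) and fell from torpedo to mature (-3.55 ± 0.38 (SE), adjusted p = 9.87e-07). CYP88A3, the kaurenoic acid oxidase of an earlier step of the same pathway, had a torpedo mean of 817 ± 247, a bent mean of 2476 ± 645 and a mature mean of 187 ± 19.2 (SD, n = 2). Its fall from torpedo to mature (-2.08 ± 0.38 (SE), adjusted p = 0.000195) was not called after median centring.

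Enzymes of seed glucosinolates with benzoyl groups were found among the members in 3 genes. AOP3, a dioxygenase that forms hydroxyalkyl glucosinolate, had values of 125 and 75.2 in the zygote libraries, 70.4 and 83.3 at octant, 19.7 and 2.55 at globular, 33.2 and 30.03 at heart, 6471 and 5509 at torpedo, 26658 and 17509.9 in the bent libraries and 65.7 and 106 at mature. BZO1, which supplies the benzoyl unit, had values of 0 and 1.47 in the zygote libraries, 6.19 and 2.25 at octant, 0 and 0 at globular, 1.51 and 6.01 at heart, 623 and 425 at torpedo, 7151 and 2454 in the bent libraries and 4.69 and 9.78 at mature. The acyltransferase scpl17, counted above with the storage vacuole and protease group for its family, had values of 0.97 and 0 in the zygote libraries, 6.19 and 6.76 at octant, 6.58 and 0 at globular, 48.3 and 31.03 at heart, 3060.1 and 2634 at torpedo, 23959 and 16055 in the bent libraries and 17.2 and 45.98 at mature. All 3 rose from heart to torpedo, by 7.39, 6.13 and 6.05 on the log2 scale, and all fell from torpedo to mature, with log2 differences of -6.09, -5.57 and -6.45, and all 6 calls held with median centring.

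Members related to chlorophyll breakdown were CYP89A9, MES16 and CLH2, a cytochrome P450 and an esterase of chlorophyll catabolites and a chlorophyllase. CYP89A9 rose from torpedo to mature (1.81 ± 0.65 (SE), adjusted p = 0.0229) and MES16 fell (-4.11 ± 0.70 (SE), adjusted p = 9.16e-05), while CLH2 had 293 ± 75.9 at torpedo and 399.7 ± 58.6 at mature (SD, n = 2), called higher after median centring but not as deposited. CLH2 shares 70.5% of its words with AT5G43870. The triterpene cyclase AT1G78500 had values of 23.3 and 5.90 in the zygote libraries, 159 and 106 at octant, 19.7 and 16.5 at globular, 30.2 and 21.02 at heart, 203 and 105 at torpedo, 5331 and 3137 in the bent libraries and 90.7 and 28.4 at mature and overlaps another gene. PAL4, of the phenylalanine ammonia-lyase family that opens phenylpropanoid synthesis, kept 34.4% of its bent mean of 4158 ± 2224 at mature.

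Of 8 transcription and chromatin members, 6 rose from heart to torpedo with or without centring, and 0 rose and 5 fell from torpedo to mature (3 and 5 after centring). DPBF2, the seed factor bZIP67, had values of 92.1 and 95.8 in the zygote libraries, 0 and 0 at octant, 0 and 2.55 at globular, 107 and 131 at heart, 574 and 949 at torpedo, 4839.7 and 3269.7 in the bent libraries and 15.6 and 46.96 at mature. It changed by 2.60 ± 0.51 (SE), adjusted p = 0.00202 from heart to torpedo and by -4.55 ± 0.51 (SE), adjusted p = 1.44e-06 from torpedo to mature. PEI1, an embryo-specific zinc finger protein, had values of 15.5 and 20.6 in the zygote libraries, 15.5 and 29.3 at octant, 23.03 and 15.3 at globular, 34.7 and 32.03 at heart, 1017 and 588 at torpedo, 4526 and 2799 in the bent libraries and 79.8 and 85.1 at mature. Its relative AT5G44260 had a bent mean of 1137 ± 471 and a mature mean of 125 ± 57.8 (SD, n = 2). GBF3, a bZIP protein that binds G-boxes, had a bent mean of 2090.3 ± 486 and kept 20.2% of it at mature. The factors bHLH071 and AT3G19500, both of the basic helix-loop-helix family, were at under 1% of their bent means at mature, and the methyl-CpG-binding protein MBD7 kept 38.1%.

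The remaining 31 members were not placed in a functional group and had bent means of 1026 to 24846. From heart to torpedo 20 of them rose and 0 fell (16 and 0 after centring), and from torpedo to mature 5 rose and 15 fell (15 and 8 after centring). E12A11, the MFT gene of the phosphatidylethanolamine-binding family that acts in seed germination, ranked second and had values of 3.88 and 16.2 in the zygote libraries, 0 and 0 at octant, 0 and 0 at globular, 3.02 and 0 at heart, 154 and 203 at torpedo, 7392 and 3941 in the bent libraries and 43.8 and 39.1 at mature. It overlaps AT1G18090 on the opposite strand and shares 40.1% of its words with it. MSRB6, a methionine sulfoxide reductase that repairs oxidised methionine, had values of 2.91 and 5.90 in the zygote libraries, 3.10 and 4.50 at octant, 0 and 2.55 at globular, 0 and 0 at heart, 0 and 8.44 at torpedo, 4878 and 6248 in the bent libraries and 1129.6 and 1232 at mature. It was at or near 0 through torpedo and rose to mature (7.39 ± 0.53 (SE), adjusted p = 3.53e-08), and because the starting values are near 0 the size of that fold depends on the constant of 4. AT3G63040, which encodes an uncharacterised protein and overlaps another gene, had values of 142 and 232 in the zygote libraries, 13.2 and 20.3 at octant, 46.1 and 5.09 at globular, 7.55 and 4.003 at heart, 3418 and 2713 at torpedo, 32712 and 16979.6 in the bent libraries and 4312 and 3743 at mature.

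The protein AT5G62800, with RING and TRAF-like domains, had values of 7.76 and 16.2 in the zygote libraries, 449.6 and 682 at octant, 602 and 335 at globular, 1291 and 785 at heart, 2289 and 2620.5 at torpedo, 8267 and 5164 in the bent libraries and 483 and 386 at mature, and its change from zygote to octant of 5.18 ± 0.43 (SE), adjusted p = 2.12e-06 was the largest rise among members there. The receptor-like kinase AT3G03770 rose as well (3.39 ± 0.54 (SE), adjusted p = 0.00012), as did the nudix hydrolase NUDT3 (3.09 ± 0.41 (SE), adjusted p = 3e-05) and AT1G78500 (3.02 ± 0.60 (SE), adjusted p = 0.000658), and these 4 calls held with median centring. Among members that fell there, HSD1 changed by -5.34 ± 0.74 (SE), adjusted p = 4.14e-05, DPBF2 by -4.61 ± 0.51 (SE), adjusted p = 7.65e-06 and AT2G18540 by -3.83 ± 0.70 (SE), adjusted p = 0.000329. HSD1 and DPBF2 were at 0 in both octant libraries.

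Other members among the first 25 showed low levels outside bent. AT5G10580, of unknown function, had a torpedo mean of 278 ± 73.7 and a bent mean of 4379.8 ± 466 (SD, n = 2). TRM13 had 2288 and 812 in the bent libraries against 121 and 94.8 at torpedo, and the filament-like protein AT1G19835 had 1755 and 2809 against 148 and 339.6. AT1G17830 had 13.1 and 24.02 at torpedo, 885 and 1498 in the bent libraries and 96.998 and 129 at mature, and it rose from torpedo to mature (2.40 ± 0.48 (SE), adjusted p = 0.000397).

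AT4G02360, whose promoter is printed above, had values of 88.2 and 114 in the zygote libraries, 9.29 and 15.8 at octant, 145 and 388 at globular, 112 and 181 at heart, 95.1 and 215 at torpedo, 1807 and 2536 in the bent libraries and 78.2 and 263 at mature. Its octant libraries were the lowest, and its torpedo and mature libraries overlapped. AT5G43770, also printed above, was at 3.02 and 4.003 at heart, 19.7 and 51.9 at torpedo, 1179.9 and 1641 in the bent libraries and 76.7 and 109 at mature. AT4G16140 was at 13.6 and 47.04, 88.6 and 155, 1341 and 1488 and 0 and 2.93 in the same order, so its mature libraries were below its torpedo libraries, whereas those of AT5G43770 were above theirs.

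Members near the end of the ranking were detected in young embryos, as were some that ranked higher, such as LTP2 and OLEO4. The last, emb2742, which encodes a CTP synthase of pyrimidine nucleotide synthesis, had a heart mean of 4071 ± 449, a torpedo mean of 3753 ± 1131 and a bent mean of 10263 ± 2290.3 (SD, n = 2). AT2G32710, a cyclin-dependent kinase inhibitor, had a zygote mean of 219.9 ± 95.7 and a bent mean of 1374 ± 497. The ribonuclease III family gene NFD2 had 465 ± 185 at zygote and 2337 ± 353 at bent, and the kinase gene AT3G56050 1092 ± 133 at heart and 3952 ± 409.8 at bent. Over all members, 39 had a zygote mean of 100 or more and 6 were under 10 in each of the 8 libraries from zygote to heart.

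The members lay on all 5 chromosomes, with 26, 15, 19, 13 and 27 on chromosomes 1 to 5. On chromosome 1, BETA-TIP, AT1G17820 and AT1G17830 are neighbours with no gene between them. BETA-TIP and AT1G17820 run toward each other and overlap by 91 bases, and AT1G17820 lies 405 bases from AT1G17830 on the same strand. On chromosome 5, ATS3 and GA20OX3 are next to each other, 4832 bases apart. In all, 25 members overlap another annotated gene, 23 of them on the opposite strand, and 9 share over 10% of their 50-base words with another gene. The library kit does not mark strand, so reads of overlapping genes cannot be told apart. The overlapping members include OLEO2, CYS2, AT1G78500, AT5G10580, AT5G43770, AT1G27350, AT3G63040, MES10, NUDT3, AT1G62790, CYP88A3, GAE5 and AT2G35820. Of those sharing words, AT2G32710 shares 37.4%, emb2742 22.6% and GBF3 10.4%. BETA-TIP, CWLP, E12A11, AT1G15825 and GBF3 overlap the gene with which they share words. Among the 75 members that overlap no other gene, a count chosen after seeing the data, 56 rose and 1 fell from heart to torpedo (47 and 2 after median centring), against 16.3% and 9.17% of all genes tested (10.5% and 16.7%). From torpedo to mature 11 of the 75 rose and 45 fell, against 15.6% and 51.3% of all genes, and after centring 30 rose and 29 fell, against 45.6% and 24.9%.

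The bent replicates were alike for most members but not all. In the bent libraries 51 members were within 1.5-fold, 21 were over 2-fold apart and 6 over 3-fold, and 58 were higher in replicate 1. Of all 2332 genes with a bent mean of 1000 or more, 19.7% were over 2-fold apart and 72.3% were higher in replicate 1. Named genes held 15198180 of 17798620 reads in bent replicate 1 and 8898797 of 12068569 in bent replicate 2. Values are scaled over all entries, named or not, and the part of this difference in the replicate shares was not tested. Of the 11 wall members 9 were higher in replicate 1. AT1G17820 stood apart in the other direction with 1129 and 8117, and LTP2 was higher in replicate 2 as well.

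**Figure D5:**
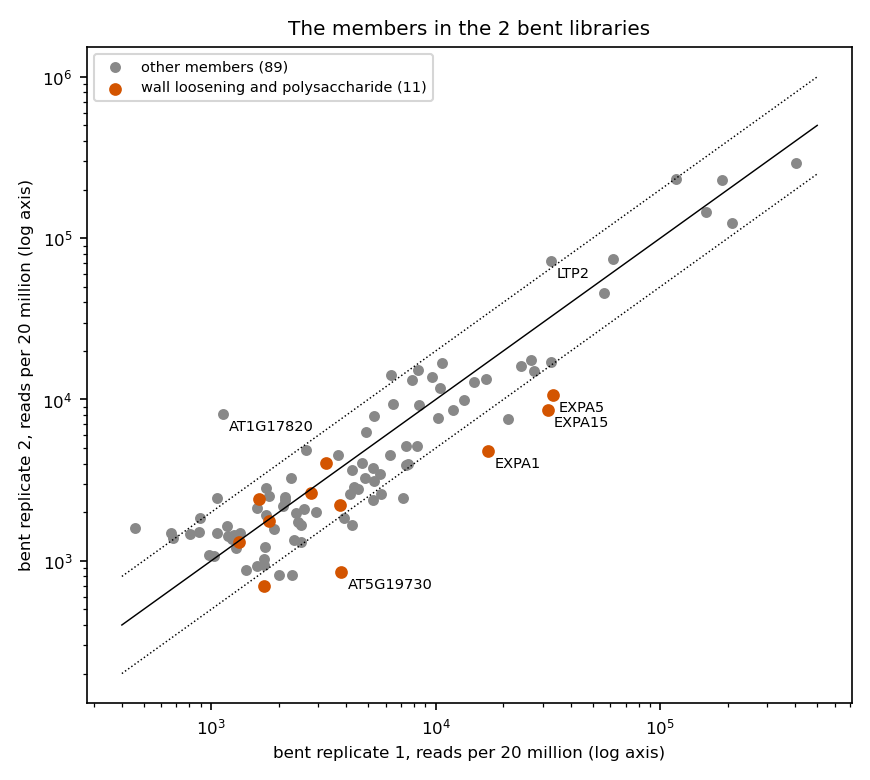
Each point is a member with its normalised read count in bent replicate 1 on the x axis and bent replicate 2 on the y axis, both log axes, and wall members in orange. The solid line marks equality and the dotted lines 2-fold, with 21 members outside them, the expansins below and AT1G17820 and LTP2 above.

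Regulators of maturation outside the members moved in both directions around the bent stage. Between torpedo and bent 3 of 18 tested regulators rose and 4 fell (4 and 3 after median centring), where 5.46% of all genes tested were called higher and 22% lower (9.93% and 9.28% after centring). LEC1, a central regulator of embryo identity, fell from 1301 ± 581 to 23.4 ± 5.01 (SD, n = 2; -5.51 ± 0.55 (SE), adjusted p = 9.11e-06), and LEC2 fell too (-3.63 ± 0.49 (SE), adjusted p = 0.000115). The MADS-box gene AGL67, which overlaps another gene, had 0 and 4.54 at torpedo and 854 and 1056 at bent (7.35 ± 0.47 (SE), adjusted p = 1.57e-07), and the dormancy gene DOG1 16.4 and 6.49 and 1968 and 1886 (7.04 ± 0.57 (SE), adjusted p = 1.28e-06). FUS3, which activates storage genes, had 1732 and 2532 at torpedo and 3153 and 2499 at bent. ABI3, a related activator, had 3880.1 and 4881 and then 6353 and 3559.7, and neither passed the test.

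Between bent and mature 3 regulators rose and 11 fell (4 and 8 after centring), where 18.2% of all genes tested were called higher and 40.1% lower (43.7% and 21.9% after centring). FUS3 fell to 170.0 ± 27.3 (-4.02 ± 0.50 (SE), adjusted p = 7.8e-06), while HSFA9, a heat shock factor of late seeds that overlaps another gene, was at 0 in both bent libraries and had 1748 and 1499 at mature.

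Vacuolar processing, oil and desiccation genes outside the members took different courses. The counts for these lists and for the tissue markers below stand against the shares of all genes tested. Those shares were 5.46% higher and 22% lower into bent (9.93% and 9.28% after centring). From bent to mature they were 18.2% and 40.1% (43.7% and 21.9% after centring). BVPE, the vacuolar processing enzyme of seeds, was at 1659 ± 246, 8647 ± 2822 and 21425 ± 9889 at torpedo, bent and mature (SD, n = 2), and its rise to bent passed the test (2.35 ± 0.38 (SE), adjusted p = 0.000477). Of 10 vacuolar genes tested 2 rose and 1 fell into bent (4 and 1 after centring), and 3 rose and 5 fell after it (5 and 2). The caleosin CLO1, an oil body protein, rose into bent (5.07 ± 0.36 (SE), adjusted p = 3.68e-07) and again to mature (1.55 ± 0.36 (SE), adjusted p = 0.00158). The desaturase gene FAD2 had 118786 ± 48691 at bent and 3441 ± 475 at mature (-5.05 ± 0.42 (SE), adjusted p = 2.22e-07), and of 10 oil synthesis genes 1 rose and 0 fell into bent (3 and 0), and 1 rose and 7 fell after it (1 and 6).

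Of 10 desiccation genes 6 rose into bent and 9 rose after it, and none fell in either comparison, with 7 and 9 after centring. EM6, a late embryogenesis abundant protein, had 2.25 and 16.6 at bent and 408115 and 315344 at mature. PER1, a seed peroxiredoxin, rose into bent from 84.5 ± 12.8 to 17159 ± 1375 (SD, n = 2; 7.61 ± 0.47 (SE), adjusted p = 1.3e-07).

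Tissue markers moved as follows over the same stages, against the same shares of all genes tested. Of 7 endosperm markers tested 1 rose and 1 fell into bent, EPR1 and ALE1, and of 8 seed coat markers 0 rose and 2 fell (1 and 1 after centring). Of 6 embryo markers 0 rose and 4 fell into bent, which became 1 and 0 after centring. Between bent and mature the counts were 1 higher and 1 lower for endosperm markers (3 and 0 after centring), 0 and 2 for seed coat markers (4 and 2) and 1 and 2 for embryo markers (4 and 0).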

How the data were processed

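RNA of whole Col-0 embryos was extracted with the RNAqueous-Micro kit, amplified with the MessageAmp aRNA kit and made into libraries with the TruSeq RNA kit, per the labels' protocols. CASAVA, Trimmomatic, FastQC, STAR, HTSeq, DESeq2 and the build TAIR10 are named in the submitters' processing notes. The authors deposited a signal per gene and library, here called a normalised read count. Each column summed to 20000000, and whole reads were recovered for 100% of values within 0.001 reads. How the columns were scaled was not given. The table has 25517 entries, of which 103 name no gene and hold 9.15% to 26.3% of the reads of a library, the highest share in bent replicate 2. They were left out of the tests. All 100 members matched the RefSeq annotation of TAIR10.1, which gave symbols and positions.

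A gene had to reach 10 in 2 or more libraries to be tested, which 18744 did and 6670 did not, and all members passed, if need be through the bent libraries alone. Values were fitted as log2(value + 4) by limma 3.58.1 (R 4.3.3) across the 14 libraries with no term but stage, 7 residual and 7.81 prior degrees of freedom, and Benjamini-Hochberg adjustment at 0.05 over all genes tested. Changes are later minus earlier stage, and the constant of 4 understates changes of low genes. Members were tested only between stages that the rule did not set against each other. The fit was also run on simulated data that held no general shift between stages. That run cannot show how the fit handles such a shift. Alternatives used edgeR 4.0.16 and DESeq2 1.42.0 on the whole reads, other scalings, constants and filters, a replicate block, and each library left out.

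The members and gene lists were chosen with earlier results of these data known. Named members were the first 25 by rank, the 5 largest called changes in each direction of each comparison, genes at the edges of the rule, families of 3 or more and the 10 highest bent means. The functional groups, the other members named and the promoters of AT3G18570, AT4G02360 and AT4G16140 were chosen after values were seen. Of 96 list genes 85 are in the table, and 2 are members. Shared 50-base words were counted in the reference transcripts.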

Additional observations from a re-analysis of the deposited data

How the results depend on the processing

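Members higher at mature than at torpedo numbered 13 in the values as deposited, and 29 with upper-quartile scaling, 44 with median centring, 28 with quantile normalisation, 35 with edgeR and 36 with DESeq2, while the 55 lower became 34 with median centring. The 1 member lower at torpedo than at heart became 2 with median centring and 2 with quantile normalisation. From zygote to octant the 24 higher became 15 with upper-quartile scaling, 10 with median centring, 12 with quantile normalisation, 14 with edgeR and 13 with DESeq2, and the 24 lower became 41 with median centring and 40 with DESeq2. List genes outside the members that rose into bent (13) became 21 with median centring and 22 with DESeq2, and those that fell (12) became 6 with upper-quartile scaling, median centring, quantile normalisation and edgeR and 5 with DESeq2. From bent to mature, 18 higher and 28 lower became 30 and 18 with median centring. VPS29 reversed there, from -0.99 to 0.39 with median centring. Among the 75 members that overlap no other gene, median centring gave 30 higher and 29 lower from torpedo to mature. It gave 47 and 2 from heart to torpedo and 6 and 32 from zygote to octant, with fewer members counted. The centred shares of all genes tested were 45.6% and 24.9%, 10.5% and 16.7%, and 21.2% and 29.4% in the same order. As deposited, 15.6% of all genes tested were higher and 51.3% lower from torpedo to mature. From zygote to octant the as-deposited shares were 44.7% and 13.1%, so the shares of all genes moved with centring too. They were not counted under the other settings of this section, so those counts are not a result about the members. The cause of these shifts was not tested. Single genes were followed under alternatives for 122 results only. These were the largest called changes of members in each comparison, and the regulator, vacuolar, oil and desiccation list genes into and after bent. The other tests of members given above were not in this count. Of the other values of single genes under alternatives, 2914 kept direction and side of the threshold, 92 lost the call and 65 gained it.

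Leaving out each library in turn gave 9 to 14 members higher and 50 to 58 lower from torpedo to mature, 48 (without torpedo replicate 2) to 73 higher and 0 to 1 lower from heart to torpedo, and 19 to 26 higher and 15 to 26 lower from zygote to octant, with the 15 reached without octant replicate 2. List genes ranged from 11 to 14 higher and 5 to 13 lower into bent, with 5 without torpedo replicate 1 and 6 without bent replicate 2, and from 15 to 18 higher and 23 to 29 lower after it. With 1 library left in a stage, that library is assumed to vary like the other stages. The shares of all genes tested were not counted with a library left out, so these ranges are not a result about the members.

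Replicate numbers were not used to pair the libraries in the main fit. Deviations of same-numbered libraries correlated at -0.11 to 0.30 over 21 stage pairs, with a median of -0.01. Of these, 3 pairs were over 0.1 and 3 under -0.1, and a batch shared by some stages was not tested. With the replicate number as a block, 69 members were higher from heart to torpedo, and 13 were higher and 56 lower from torpedo to mature. The shares of all genes tested were not counted with this block either.

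Of the 100 members, 97 remained with equal totals over named genes, 82 with upper-quartile scaling, 69 with a common median, 75 with a bent minimum of 500, 69 with one of 2000, and 83 to 100 with a library left out, 83 without either bent library. With 2 libraries a stage, the spread within a stage is known only roughly, and the libraries with the fewest reads, globular replicate 1 and torpedo replicate 1, resolve low members least.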
